A study of Homo sapiens with 18 samples.

Results

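The sites described here are U-tracts that the study listed as hnRNP C switch sites by PARCLIP-MeRIP and that do not recur in its HCS list of m6A switches. They are called MeRIP-only sites below. The name means only that the U-tract is absent from the HCS list, and what evidence or threshold the HCS list rests on is not known here. They were chosen by collapsing entries of the switch list with the same chromosome, strand and tract coordinates and taking those whose U-tract is not in the HCS list. This gave 12276 of 13378 U-tracts in the switch list (91.8%), out of 15024 in either list. The other 1102 switch sites are in both lists, and 1646 U-tracts are in the HCS list only. Both lists rest on measured values that are not in the tables, so the number of MeRIP-only sites is set by the submitters' calling and is not a finding.

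hnRNP C is an abundant nuclear protein that binds runs of uridines in unspliced transcripts. N6-methyladenosine (m6A) is written on RRACH motifs (R is A or G, H is A, C or U) by a complex of METTL3, METTL14 and partner proteins. In the model of an m6A switch, methylation loosens base pairing of the RNA and so opens a nearby U-tract to hnRNP C. PAR-CLIP maps protein contacts by crosslinking, and in PARCLIP-MeRIP the crosslinked RNA is enriched further with an antibody to m6A.

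The series holds 18 samples in 9 groups of 2, all from HEK293T, a transformed line from human embryonic kidney. The PARCLIP-MeRIP libraries comprise 2 IP samples and 2 Input samples from cells labelled wild type, with hnRNPC as the crosslinked protein. The other PAR-CLIP groups are METTL3 knockdown, METTL14 knockdown and a control labelled wild type, and the RNA-seq groups are HNRNPC, METTL3 and METTL14 knockdown and a wild type control. HEK293T is a single cell line, and how the knockdowns were made is not given in the sources used here. The switch list and the HCS list are each 1 list for the series with no value per sample, so neither the enrichment of IP over Input nor the depth behind a site is known. None of 13 genes restricted to liver, blood, muscle, neurons or glia was in either list (0 in the switch list and 0 in the HCS list). The share of all human genes that are in a list was not computed, so this count has no background and is no check of the cell line.

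MeRIP-only sites were short U-tracts, most of them at the lower limit of the list. The listed tracts have 5 uridines or more, and each is given with 1 motif at a distance of up to 50 nt. Among MeRIP-only sites, 7816 (63.7%, exact binomial 95% interval 62.8% to 64.5%) were exactly 5 nt long. A further 2304 (18.8%) were 6 nt and 959 (7.81%) were 7 nt. Tracts of 8 to 11 nt made up 804 sites (6.55%), and 393 sites (3.20%) had 12 uridines or more. These intervals cover counting error only, and sites of a gene are not independent.

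The longest tracts lay in genes of unlike function. POLA1, which codes for the catalytic subunit of a replicative DNA polymerase, held the longest, a run of 56 uridines at chrX:24824170-24824225 (hg19, plus strand) with its motif 12 nt downstream. DNMT1, the maintenance DNA methyltransferase, held 44 uridines at chr19:10275589-10275632 (minus strand), with the motif 27 nt upstream. In ERGIC3, a protein of the compartment between endoplasmic reticulum and Golgi, a tract of 42 uridines lay at chr20:34140774-34140815 (plus strand), 37 nt after its motif. The run of 33 uridines in WTAP, a subunit of the m6A writer complex, at chr6:160160856-160160888 (plus strand) was the fifth longest. Tracts of 20 nt or more numbered 94 (0.766%, interval 0.619% to 0.936%), against 4 of 1102 (0.363%, interval 0.0990% to 0.927%) in both lists. These intervals overlap. The longest tract in both lists was 27 nt.

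**Figure D1:**
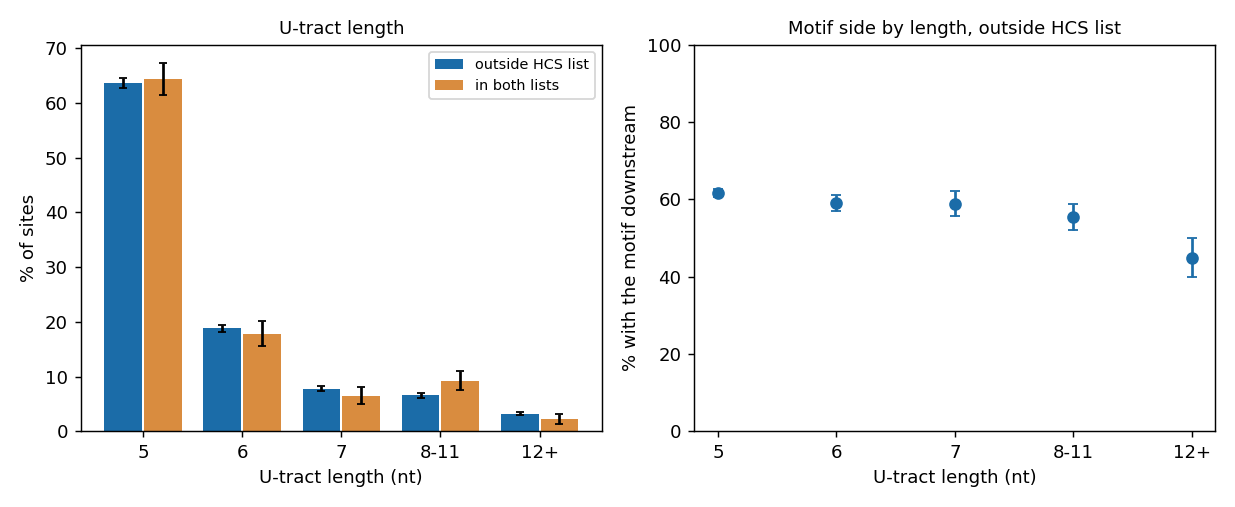
Left: share of sites (%) by U-tract length in nt, for MeRIP-only sites (blue, labelled outside HCS list) and sites in both lists (orange), with exact binomial 95% intervals. Right: share of MeRIP-only sites with the motif downstream, by U-tract length, with the same intervals. The 5 nt tracts stand at 63.7% and 64.4%, and the downstream share is 61.7% for 5 nt tracts and 44.8% for tracts of 12 nt or more.

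The RRACH motif lay downstream (3′) of the U-tract in 7366 MeRIP-only sites (60.0%, interval 59.1% to 60.9%) and upstream in 4910. The listed distance of an upstream motif includes the 5 nt of the motif, so upstream gaps end at 45 nt. Among the 11723 sites with gaps up to 45 nt, the downstream share was 58.1% (interval 57.2% to 59.0%). The side varied with tract length. The motif was downstream of 61.7% of 5 nt tracts (interval 60.6% to 62.7%), 59.0% of 6 nt tracts and 58.9% of 7 nt tracts. For tracts of 8 to 11 nt it was 55.5% (interval 52.0% to 58.9%), and for tracts of 12 nt or more it was 44.8% (interval 39.8% to 49.9%), so that among the longest tracts the upstream side was the more frequent. This relation was seen in the data and was not tested.

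The gap is the number of bases between tract and motif, and a few single gaps held many more sites than their neighbours. The median gap was 17 nt, with 18 nt for downstream and 16 nt for upstream motifs. In 271 sites the tract and an upstream motif overlapped by 1 base, which means that the motif ends in U and that this U opens the tract, as in ACAD9, a mitochondrial acyl-CoA dehydrogenase, and AGK, an acylglycerol kinase. Tract and motif overlapped or touched in 655 sites (5.34%). A single downstream gap held a median of 128 sites and a single upstream gap a median of 107.

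Downstream gaps of 40 nt held 369 sites in 349 genes, against a median of 92.5 for the 4 neighbouring gaps. The gap of 48 nt held 245 sites against 75.5, the gap of 13 nt held 297 against 176, and the gap of 5 nt held 309 against 192. On the upstream side the gap of 28 nt held 187 sites against 100.5. These 5 gaps took 11.5% of MeRIP-only sites (1407, interval 10.9% to 12.0%) and 6.90% of the sites in both lists (76, interval 5.47% to 8.56%). The gaps of 40 and 48 nt together held 614 of 12276 MeRIP-only sites (interval 4.62% to 5.40%) and 18 of 1102 sites in both lists (1.63%, interval 0.971% to 2.57%). The gaps of 5 and 13 nt held 4.94% of MeRIP-only sites and 4.17% of sites in both lists, with intervals that overlap. The upstream gap of 28 nt held 1.52% of MeRIP-only sites (interval 1.31% to 1.76%). It held 1.09% of sites in both lists (interval 0.564% to 1.89%), and these intervals overlap too. The 40 nt sites were mostly short tracts, with 83.2% of them exactly 5 nt. The gaps were singled out after the profile had been seen, so these shares are given with no test.

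**Figure D2:**
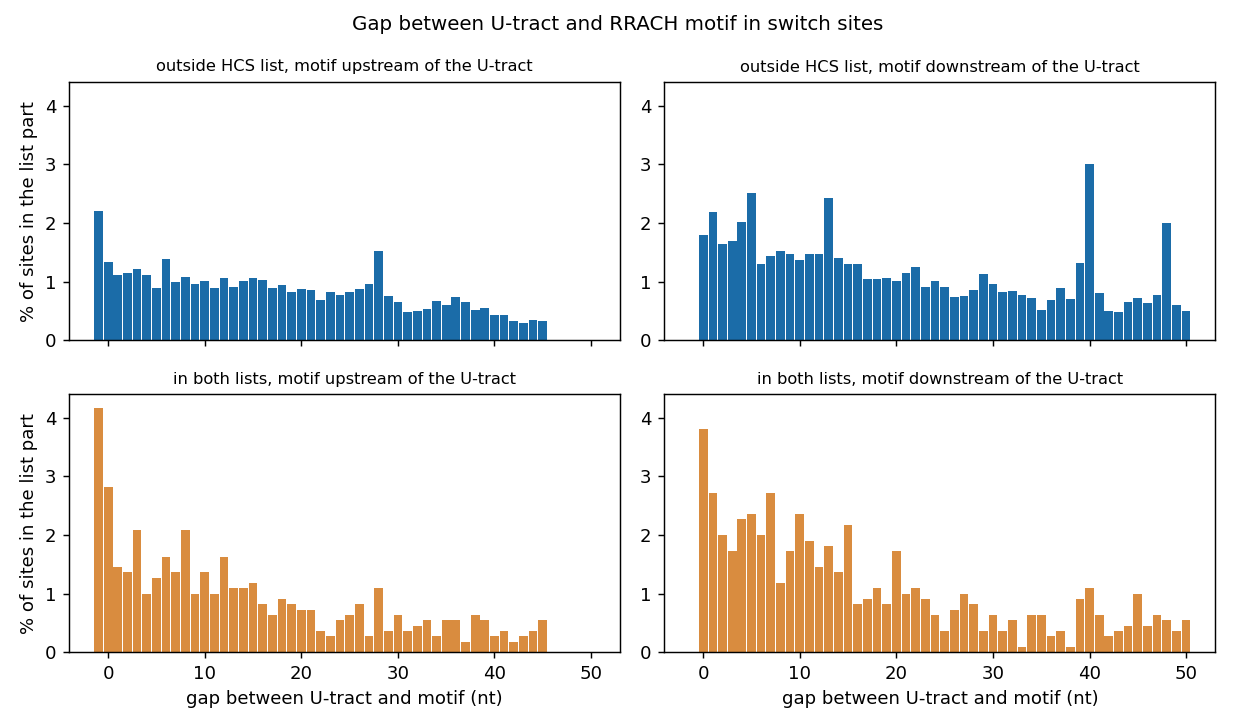
Share of sites (%) at each gap between U-tract and RRACH motif in nt, with MeRIP-only sites above (blue) and sites in both lists below (orange), for upstream motifs on the left and downstream motifs on the right. A gap of -1 is an overlap by 1 base. MeRIP-only sites show single high bars at downstream gaps of 5, 13, 40 and 48 nt and at upstream gaps of -1 and 28 nt. Tract and motif touch or overlap in 10.8% of sites in both lists and 5.34% of MeRIP-only sites. Among sites in both lists, the downstream gap of 40 nt and the upstream gap of 28 nt hold 12 sites each.

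Neighbouring MeRIP-only tracts showed a fixed spacing that goes with these gaps. Of 12230 pairs of neighbours along a chromosome strand, 1965 lay within 100 nt, and 483 of those had exactly 3 bases between the tracts, in 416 genes or groups of overlapping genes. A further 279 pairs were split by a single base, while spacings of 2 and 4 bases held 80 and 69 pairs. The pairs split by 3 bases were paired with the same motif in 478 cases (99.0%), and in 401 the motif lay downstream of both tracts. In 274 of them both tracts were 5 nt. Such a pair of 5 nt tracts gives gaps that differ by 8 nt, and 133 of the pairs held the gaps 40 and 48 nt and 72 the gaps 5 and 13 nt. Among the sites in both lists, 8 of 1056 neighbouring pairs had 3 bases between them and 12 had 1 base. The sites in both lists are fewer, and only 27 of their pairs lay within 10 nt at any spacing. Those 27 pairs include the 8 and the 12, so both spacings were frequent among their close pairs too. Of the 12230 MeRIP-only pairs, 1158 lay within 10 nt, with the 483 and the 279 among them.

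ANKRD11, a chromatin regulator, shows the arrangement repeatedly. Its tracts at chr16:89415373-89415377 and chr16:89415381-89415385 (minus strand) lay 40 and 48 nt before a shared motif, and so did those at chr16:89494453-89494457 and chr16:89494461-89494465. Another pair, at chr16:89404970-89404974 and chr16:89404978-89404982, lay 5 and 13 nt before its motif. HNRNPC itself held a pair with gaps of 5 and 13 nt, at chr14:21728823-21728827 and chr14:21728831-21728835 (minus strand). UPF1, the helicase of nonsense-mediated decay, held such a pair at chr19:18975722-18975726 (40 nt) and chr19:18975714-18975718 (48 nt) (plus strand).

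**Figure D3:**
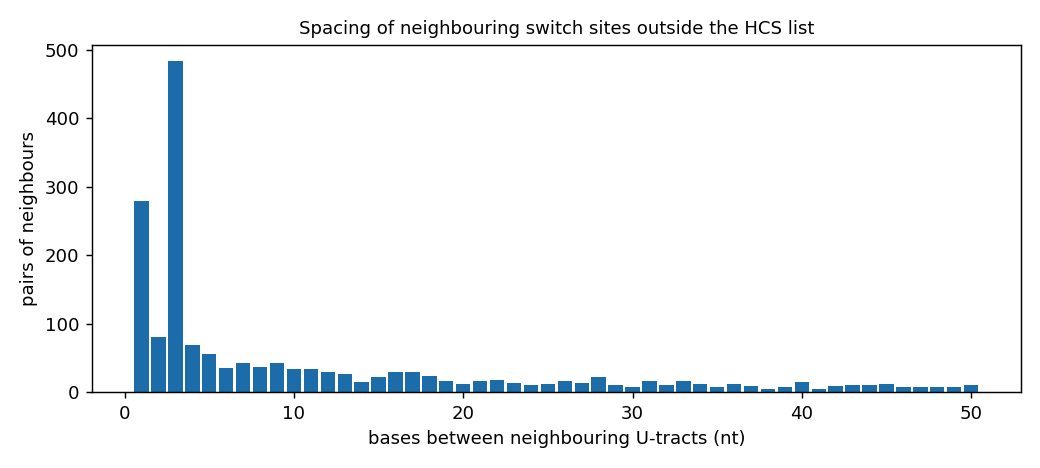
Number of pairs of neighbouring MeRIP-only U-tracts on the same strand by the number of bases between them, shown up to 50 nt. The bar at 3 bases holds 483 pairs and that at 1 base 279, against 80 at 2 bases and 69 at 4.

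Many motifs served several tracts. The 12276 tracts were paired with 10547 motifs, of which 8968 had 1 MeRIP-only tract and 1579 (15.0%) had several, up to 5. In 872 of those 1579 every tract lay before the motif, in 373 every tract lay after it, and in 334 the motif had tracts on both sides. The motif with 5 MeRIP-only tracts was in TM9SF3, a membrane protein of the secretory pathway. There, tracts of 11, 6, 5, 5 and 6 uridines surround chr10:98281527-98281531 (minus strand). In ANKRD11, 4 tracts of 5 nt lay 3, 16, 28 and 44 nt after a motif at chr16:89554233-89554237. KHSRP codes for a splicing and decay factor that binds AU-rich elements. Its motif at chr19:6414691-6414695 (minus strand) had 1 MeRIP-only tract after it and 3 before it. A tract in both lists, at chr19:6414696-6414701, also lay before this motif and touched it. SFPQ, a nuclear splicing factor and paraspeckle component, had 4 tracts after a motif at chr1:35649877-35649881 (minus strand). Merging MeRIP-only tracts within 100 nt left 10311 clusters, of which 8570 were single tracts. The 2 largest clusters held 6 tracts each, in C6orf48, a snoRNA host gene, and in RBM3, a cold-inducible RNA-binding protein.

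A small set of MeRIP-only sites shared their motif with a tract of the HCS list. There were 196 such sites on 169 motifs in 159 genes. Each was compared with the nearest HCS tract on its motif, which favours the MeRIP-only tract being the farther where a motif has several HCS tracts. The MeRIP-only tract was the farther from the motif in 121 of them (61.7%, interval 54.5% to 68.6%), the nearer in 74 and at an equal gap in 1. The interval treats the 196 sites as independent, although some share a motif. Their median gap was 22 nt, against 15 nt for the nearest HCS tracts on the same motifs, counted once per MeRIP-only site. METTL14 is an example, since its single MeRIP-only tract at chr4:119626917-119626921 (plus strand) lay 27 nt after a motif whose HCS tract, in an exon, lay 8 nt after it. In PTBP2, the neuronal paralogue of the splicing repressor PTBP1, tracts at chr1:97279064-97279070 and chr1:97279079-97279088 (plus strand) lay 24 and 39 nt after a motif whose nearest HCS tract was exonic with a gap of 9 nt. The reverse order was seen in HNRNPC, where the MeRIP-only tract at chr14:21731546-21731550 had a gap of 14 nt and the intronic HCS tract a gap of 29 nt.

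MeRIP-only sites were then set against the switch sites in both lists, by linear fits over all 13378 switch sites with standard errors clustered over 4059 loci (genes that share a site joined). The p-values were adjusted by Benjamini-Hochberg over 6 measures. A gap of at most 10 nt was found in 33.4% of MeRIP-only sites and 46.5% of sites in both lists (n = 12276 and n = 1102), a difference of -13.1 percentage points (standard error 1.54, interval -16.1 to -10.1, adjusted p = 1.4e-16). By gap class, the HCS list also held 15.4% of switch sites for contacts (gaps of -1 and 0 nt), 9.54% for 1 to 5 nt, 11.1% for 6 to 10 nt and 8.56% for 11 to 20 nt. The share was 6.08% for 21 to 30 nt and 6.28% for 41 to 50 nt, and between them, at 31 to 40 nt, 1957 sites were MeRIP-only and 103 were in both lists.

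Motifs listed with several switch U-tracts were the second measure that differed. They held 28.1% of MeRIP-only sites and 21.4% of sites in both lists (n = 12276 and n = 1102), a difference of 6.69 points (standard error 1.44, interval 3.87 to 9.51, adjusted p = 1.0e-05). Among switch sites with a gap of at most 10 nt this difference was 3.57 points with an adjusted p of 0.263 in the same kind of fit.

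The other 4 measures did not pass. The motif was downstream in 60.0% of MeRIP-only sites and 56.7% of sites in both lists (n = 12276 and n = 1102, difference 3.29 points, interval 0.140 to 6.44, adjusted p = 0.0813). Tracts of 5 nt made up 63.7% of MeRIP-only sites and 64.4% of sites in both lists (n = 12276 and n = 1102, difference -0.759 points, interval -3.72 to 2.20, adjusted p = 0.638). Tracts of 8 nt or more made up 9.75% of MeRIP-only sites and 11.3% of sites in both lists (n = 12276 and n = 1102, difference -1.59 points, interval -3.54 to 0.358, adjusted p = 0.164). The first 1000 nt of the transcript held 2.31% of MeRIP-only sites and 2.09% of sites in both lists (n = 12276 and n = 1102, difference 0.218 points, interval -0.691 to 1.13, adjusted p = 0.638). These p-values do not show that the groups are alike, and the intervals give the range of differences that the fits allow.

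**Figure D4:**
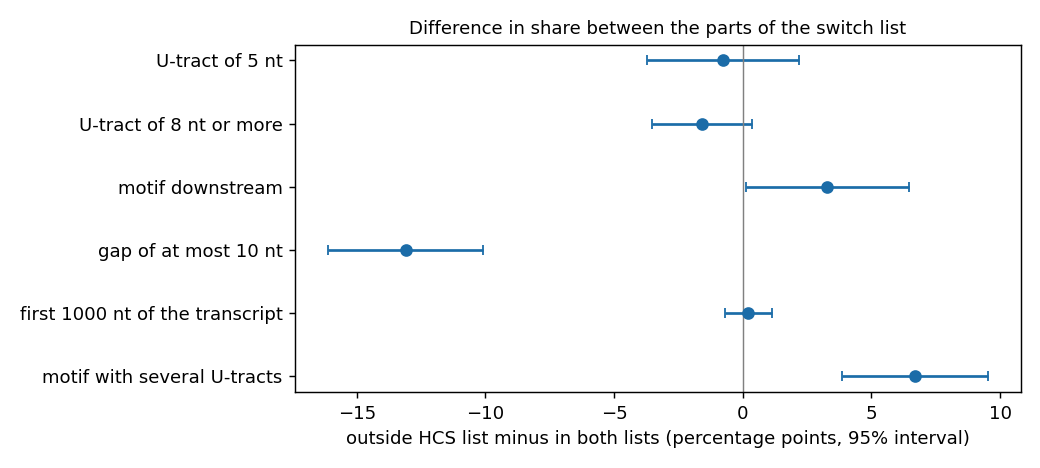
Difference in share between MeRIP-only sites and sites in both lists (percentage points, MeRIP-only minus both) for 6 measures, with 95% intervals from fits clustered by locus. The gap of at most 10 nt lies at -13.1 and the motif with several U-tracts at 6.69, and the other 4 measures have an adjusted p of 0.0813 or more.

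Positions in the transcript count introns, since the offset between listed transcript position and genome was constant in 3275 of 3277 transcripts with several entries. For tracts listed under several transcripts, the smallest position was used. The quartiles of MeRIP-only sites were 8430.5 and 45186.2 nt from the transcript start, with a median of 21159.5 nt. Sites in both lists had a median of 21903 nt and quartiles of 7718.8 and 45575.8 nt. The first 1000 nt held 283 MeRIP-only sites (2.31%), and 849 (6.92%) lay beyond 100000 nt.

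The site nearest to a transcript start was in YWHAE, a 14-3-3 adaptor protein, at chr17:1303494-1303498 (minus strand), 58 nt into the transcript and 37 nt before its motif. Next came a noncoding transcript, LOC100128288, at 68 nt, and ARRDC3, an arrestin-domain protein, at 79 nt, and all 3 were 5 nt tracts with the motif downstream. In the first 1000 nt, 26.5% of MeRIP-only sites had a gap of at most 10 nt (interval 21.5% to 32.0%), against 36.7% beyond 100000 nt (interval 33.5% to 40.1%) and between 31.9% and 34.1% in the position classes between them. The downstream share was 54.1% in the first 1000 nt (interval 48.1% to 60.0%) and 60.9% beyond 100000 nt (interval 57.5% to 64.2%). Sites listed under noncoding transcripts only made up 379 MeRIP-only sites (3.09%) and 34 sites in both lists (also 3.09%).

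MeRIP-only sites were spread over 4051 genes, with 278 sites listed under more than 1 gene. Of these genes 1638 (40.4%) held a single site, 1831 held 2 to 5, 384 held 6 to 9 and 198 held 10 or more. The median was 2 sites. Of the 4051 genes, 1400 (34.6%) also held a site of the HCS list.

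ANKRD11 led with 39 MeRIP-only sites on 30 motifs, against 3 sites in both lists. FTX, a noncoding RNA of the X inactivation centre, held 29 and its neighbour JPX, also noncoding, held 24. HNRNPC and the histone chaperone NAP1L4 held 28 each. Of the tracts in HNRNPC, which encodes the crosslinked protein, 21 lay before their motif and 7 after it. The longest had 12 uridines, at chr14:21718411-21718422, and 3 tracts of 6 nt at chr14:21691906-21691929 lay 1, 8 and 19 nt before a shared motif.

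POLA1, the secreted guidance factor SLIT2 and RPS10-NUDT3, a read-through locus, had 26 MeRIP-only sites each, and 14 of those in RPS10-NUDT3 are also listed under another gene. TRAPPC8, a vesicle-tethering protein, held 25. In SLIT2 the sites ran from 143 nt to 349846 nt of the transcript. In each of these genes the MeRIP-only sites outnumbered those in both lists, at 26 against 2 in POLA1 and 25 against 3 in TRAPPC8, as they do in the whole switch list by the way they were chosen.

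**Figure D5:**
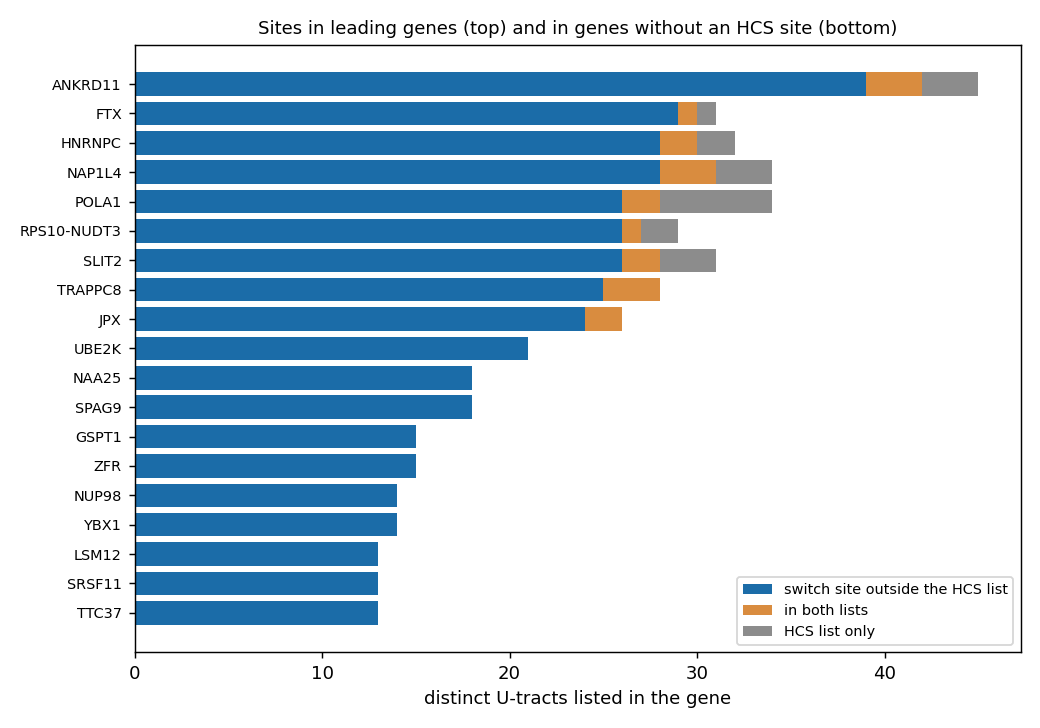
Number of distinct U-tracts listed in 19 genes, with MeRIP-only sites in blue, sites in both lists in orange and HCS-only sites in grey. The upper genes are among those with the most MeRIP-only sites, led by ANKRD11 with 39, and the lower genes, from UBE2K with 21 downwards, have no HCS site.

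Some genes held many MeRIP-only sites and no site of the HCS list. They were 38 of the 198 genes with 10 or more MeRIP-only sites (19.2%), against 2651 of all 4051 genes (65.4%), so genes with many sites lacked an HCS site in a smaller share than all genes. This difference was not tested. UBE2K, a ubiquitin-conjugating enzyme, held 21 sites with a median gap of 5 nt, and 13 of the 21 had a gap of at most 10 nt. Its longest tract, 27 uridines at chr4:39764556-39764582 (plus strand), ended 2 nt before its motif. NAA25, a subunit of an N-terminal acetyltransferase, and SPAG9, a scaffold of JNK signalling, held 18 each, with median gaps of 26.5 and 12.5 nt. GSPT1, a translation release factor, and ZFR, a zinc finger RNA-binding protein, held 15 each. The nucleoporin NUP98 and the Y-box protein YBX1, which binds mRNA, held 14 each. LSM12, an RNA-binding adaptor, the splicing factor SRSF11 and TTC37, a subunit of the SKI complex of RNA decay, held 13 each. In LSM12 only 1 of 13 sites had a gap of at most 10 nt.

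Among m6A writers, erasers and readers, 15 of 19 genes (searched under 21 symbols, older names included) held a MeRIP-only site, 71 in all. The share of all human genes that hold such a site was not computed, so this count has no background beside it. The same holds for the counts of genes in the lists that follow. Of the 15 genes, 7 also held an HCS site (46.7%), against 34.6% of all genes with a MeRIP-only site. The median was 5 sites among the 15 genes and 2 among all 4051. An HCS site was missing from 19.2% of genes with 10 or more MeRIP-only sites and from 65.4% of all 4051. The shares of listed genes with an HCS site are not matched for number of sites. Of the writers, WTAP held 10 sites and none in the HCS list. Its tract of 33 uridines shared a motif at chr6:160160840-160160844 with a 5 nt tract that began 3 nt after the motif, and 3 bases separated the tracts. METTL3 held 3 sites, all of 5 nt and all before their motifs, at chr14:21976241-21976245, chr14:21976248-21976252 and chr14:21976547-21976551 (minus strand), with gaps of 12, 19 and 7 nt. The eraser FTO held 5 sites between 10567 and 410288 nt of its transcript, and ALKBH5, the other eraser, held 2. The readers YTHDF1 and YTHDF2, which act in the cytoplasm, held 10 each. In YTHDF1 a tract of 15 uridines at chr20:61827478-61827492 (minus strand) began 1 nt after its motif. YTHDC2 held 7, IGF2BP3 held 6, and the nuclear reader YTHDC1 held 5.

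Among hnRNP, polypyrimidine and poly(C) binding proteins, 21 of 29 genes (searched under 31 symbols) held 148 MeRIP-only sites. Of the 21 genes, 14 also held an HCS site (66.7%, against 34.6% of all genes), and their median was 4 MeRIP-only sites, against 2 over all genes. The shares with an HCS site in this paragraph are likewise not matched for number of sites. After HNRNPC, PTBP2 held 24 and PCBP2, a poly(C)-binding protein, held 22. HNRNPU, a nuclear scaffold protein, held 11 and no HCS site, with a median gap of 33 nt and a longest tract of 20 uridines. HNRNPM and SYNCRIP held 8 each. Other proteins that bind uridine-rich RNA had 13 of 19 genes with a site, 83 sites in all with a median of 6, and 6 of those 13 genes had an HCS site (46.2%, against 34.6% of all genes). CELF1, which binds GU-rich elements, held 13, KHDRBS1, a STAR-family splicing regulator, held 9 and KHSRP held 8.

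Exon junction and nonsense-mediated decay factors had 11 of 12 genes with a MeRIP-only site, with 26 sites in all and a median of 1. Here too no share over all genes was available. UPF1 held 6 tracts, all of 5 nt, with a median gap of 39 nt. UPF2, an adaptor of the pathway, and CASC3, a core protein of the exon junction complex, held 5 each. MAGOH, another core protein of that complex, held 2. Of the 11 genes, 4 also held an HCS site (36.4%), which is near the 34.6% of all genes. MALAT1, a nuclear long noncoding RNA, held 9 MeRIP-only sites between positions 1355 and 7407, with tracts of 5 to 7 uridines and gaps of 3 to 41 nt, beside 3 sites in both lists.

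By chromosome, chromosome 1 held 1538 MeRIP-only sites (12.5%), followed by chromosome 17 with 914 (7.45%) and chromosome 2 with 890 (7.25%). The share of switch sites that were MeRIP-only lay between 87.8% on chromosome 22 and 94.5% on chromosome 16. Strands were close to even, with 6386 sites on the plus strand and 5890 on the minus strand. Whether a MeRIP-only site is exonic or intronic is not given in the switch list and was not analysed here.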

How the data were processed

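PARCLIP-MeRIP and PAR-CLIP of hnRNP C and RNA-seq were done on 18 HEK293T samples, grouped by title. The submitters' processing notes name the tools Trimmomatic and Bowtie 1.0.0 and the build hg19. The sources used here do not give site calling, thresholds or pooling. The deposited values are, per the file headers, positions, lengths and distances in nucleotides, with no counts, scores or p-values, so the fixed test of IP over Input was not run and depth is unknown.

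The 17352 entries were reduced to distinct U-tracts, and 3 Y chromosome copies were left out. Symbols are the lists' own. For 756 entries without a symbol and 65 with a calendar date, the transcript was looked up in a RefSeq table of GRCh38 used for names, which named 753 and 64. The gap was computed from positions, and the listed distance equalled it, plus 5 upstream, in all 17352 entries. A nearer motif was listed elsewhere for 17 U-tracts. Sequence was not used here.

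Shares have exact binomial intervals at 95%. Differences came from a linear fit with standard errors clustered by locus, tested on simulated data. The members, lists and tests were chosen with earlier results of these data known. Named genes are the 10 with the most MeRIP-only sites, the 10 with the most among genes without an HCS site, up to 4 of each list, HNRNPC, METTL3, METTL14 and MALAT1, and the longest, closest and first sites. Not every gene taken by that rule is reported here. The gaps with high counts, the spacing, the largest clusters and motifs with 4 or more tracts, and further members of the lists, were named after their values were seen. Python 3.11.15, numpy, pandas 2.3.3, scipy 1.17.1 and matplotlib were used.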

Additional observations from a re-analysis of the deposited data

How the results depend on the processing

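The share with a gap of at most 10 nt kept its direction and its call under all 11 alternatives, between -16.6 and -8.18 points. The share of motifs with several U-tracts kept its call in 6 of 7 and missed it among sites with a gap of at most 10 nt (3.57 points, chosen after the data were seen). Set against HCS sites outside the switch list, the differences were -4.50 points for 5 nt tracts and 4.54 for the downstream side, both then past the threshold, and 2.58 for tracts of 8 nt or more, where the direction reversed. In that comparison, sharing of a motif was counted over these sites alone, without the sites in both lists. Motifs with several U-tracts held 27.0% of MeRIP-only and 4.13% of HCS-only sites, a difference of 22.9 points. These shares depend on how many tracts are listed, and the parts held 12276 and 1646 tracts. The 22.9 points therefore cannot be set beside the 6.69 points for sites in both lists, which were counted over the switch list. The share in the first 5000 nt differed by -1.50 points, against 0.218 for the first 1000 nt, and neither passed. Within loci the downstream difference was 1.35 points. The causes were not tested. With 1 U-tract per motif the sites numbered 6 in WTAP, 6 in YTHDF1 and 5 in KHSRP, and RPS10-NUDT3 held 12 without sites shared with other genes. The limit to gaps of 45 nt, the largest transcript position, leaving out motifs of the HCS list, and leaving out the 5 high gaps for shared motifs were also added after the data were seen. No paired analysis was possible because both lists are without per-sample values, so no replicate could be left out and IP over Input was not run. Depth is unknown.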

Other observations

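Values not used above were read from the genes with clusters of tracts, which were chosen after their values were seen. In SFPQ the 4 tracts after the shared motif had 9, 5, 6 and 6 uridines at gaps of 6, 17, 31 and 38 nt. AURKA, the mitotic kinase Aurora A, had a motif at chr20:54961944-54961948 (minus strand) with tracts at 32 and 41 nt before it and at 17 and 32 nt after it. RCN2, a calcium-binding protein of the endoplasmic reticulum, had 4 tracts before a motif at chr15:77233087-77233091 (plus strand), at gaps of 5, 14, 20 and 26 nt. IP6K1, an inositol hexakisphosphate kinase, had 4 tracts at gaps of 1, 7, 13 and 20 nt before a motif at chr3:49795146-49795150 (minus strand). In RCN2 and IP6K1 a single base separated each tract from the next. ESYT2, an extended synaptotagmin, had a motif at chr7:158606609-158606613 (minus strand) that touched a tract on either side.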
